A study of Mus musculus with 8 samples.

Results

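The solute carriers described here are 175 genes expressed in cultured mouse brain endothelium, out of 54532 genes in the deposited tables. They are the genes whose mouse symbol starts with Slc and a digit, and whose level reached 1 FPKM (a fragment count scaled to exon length and library depth) in at least 4 of the 8 libraries. Of 379 such symbols, 198 stayed below that level and 16 of these were at 0 in every library. Another 8 nutrient carriers of the blood-brain barrier were left out by name, namely Slc2a1, Slc7a5, Slc3a2, Slc16a1, Slc16a3, Slc7a1, Slc38a5 and Slc7a11, of which 6 passed the level. The members were thus chosen by their FPKM over all 8 libraries, and their levels below are a description with no test. The level was reached in all 8 libraries by 156 members and in 4 to 7 libraries by 19, and no member was at 0 in any library. By the fourth highest library, the members just inside the threshold were Slc25a47 at 1.03, Slc2a6 at 1.04 and Slc12a8 at 1.17 FPKM. Just outside were the pseudogene Slc39a1-ps at 0.994, Slc24a5 at 0.990 and Slc37a2 at 0.986 FPKM.

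The 8 libraries came from primary brain microvascular endothelial cells, which line the small vessels of the brain. There were 4 libraries labelled as knockouts of the calcium channel subunit Cavβ3 (Cavb3 KO) and 4 labelled wild type (WT). All were grown in the same DMEM-based medium, with heparin, fibroblast growth factor and fetal calf serum added. The sources used here do not give the kind of knockout allele or the age and number of the animals, and each group carries the replicate numbers 1 to 4. The implied depth was 23491645 to 33813070 assigned fragments in the libraries labelled Cavb3 KO and 24946878 to 28475518 in the WT libraries. The fewest fragments behind the value of any member in a library were 12.

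Solute carriers are membrane proteins that move small molecules along or against their gradients, many of them by coupling to sodium, protons or the exchange of another solute. In brain endothelium they carry nutrients, ions and vitamins between blood and brain, and other members serve the organelles inside the cell. Families are numbered, so that SLC25 holds chiefly carriers of the mitochondrial inner membrane, SLC39 and SLC30 zinc transporters, SLC35 Golgi and endoplasmic reticulum carriers of nucleotide sugars, and SLC6 sodium- and chloride-coupled carriers of transmitters, osmolytes and amino acids.

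The targeted gene did not separate the genotype labels. Cacnb3, which encodes Cavβ3, stood at 1.70, 2.09, 2.47 and 1.77 FPKM in libraries 1 to 4 labelled Cavb3 KO, against 3.38, 3.56, 1.12 and 0.980 FPKM in WT libraries 1 to 4. The labelled knockout libraries fell between the low and the high WT libraries, and the means of 2.01 ± 0.352 and 2.26 ± 1.40 FPKM (SD, n = 4 each) gave p = 0.714 in an exact two-sided permutation test over 70 splits that pools both pairs of replicate numbers. In replicates 1 and 2 both libraries labelled Cavb3 KO were below both WT libraries, and in replicates 3 and 4 both were above, so whether each label fits its library cannot be told from this gene. Every direction between genotypes below rests on the labels. The Y-linked gene Ddx3y was at 6.98 to 9.48 FPKM in replicates 1 and 2 of both labels and was listed at 0 in replicates 3 and 4. The X-linked gene Xist was at 12.4 to 15.1 FPKM in replicates 1 and 2 of both labels and at 28.3 to 43.3 FPKM in replicates 3 and 4. Replicates 1 and 2 and replicates 3 and 4 are called 2 library sets below, a split chosen with earlier results of these data known. A difference between the sets cannot be told apart from a difference in the sex of the cells cultured. The endothelial markers summed to 1543 to 1834 FPKM in the libraries labelled Cavb3 KO and to 1734 to 2374 FPKM in the WT libraries, and all 10 had a genotype difference below 0. With the library set as a term, Esam passed with a log2 difference of -0.38 (adjusted p = 0.0404 in limma). In that fit 0.371% of all genes fell. Pecam1 and Tie1 were lower without overlap and did not pass. The choroid plexus and ependymal list summed to 10.9 to 15 FPKM in the libraries labelled Cavb3 KO and to 13.9 to 19.1 FPKM in WT, most of it Clic6. Clic6 ran from 9.23 to 10.5 FPKM and from 12.5 to 14.9 FPKM in the same order, without overlap. It passed, with a log2 difference of -0.43 (adjusted p = 0.0404 in limma with the library set as a term). Foxj1, the other gene of that list that was tested, differed by -0.37 and did not pass. Folr1 of the same list went the other way without overlap, below 1 FPKM in every library. It ran from 0.294 to 0.579 FPKM in the libraries labelled Cavb3 KO and from 0.122 to 0.175 FPKM in WT. Of the 7 pericyte markers, 6 were below 1 FPKM in every library. The list summed to 2.88 to 5.56 FPKM in the libraries labelled Cavb3 KO and to 2.35 to 3.08 FPKM in WT. Pdgfrb made up most of it, at 2.80, 4.70, 5.24 and 2.89 FPKM in the libraries labelled Cavb3 KO and 2.21, 2.63, 2.12 and 2.79 FPKM in WT, without overlap, with a log2 difference of 0.48 (adjusted p = 0.205 in limma with the library set as a term). Markers of neurons, oligodendrocytes and microglia summed to at most 1.17 FPKM in any library. The part of these lists in the differences below was not tested.

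The promoter of Slc6a12, the member with the largest genotype difference, is shown with that of Slc38a4, the other member whose libraries labelled Cavb3 KO all lay above the WT libraries, and that of Slc24a3, which was lower. Each run covers 250 bases before to 50 after a RefSeq start in build GRCm38.p6. Capitals mark TGGAAA, or TTTCCA on the other strand, the core of the tonicity element bound by the osmotic stress factor NFAT5.

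Slc6a12, chr6:121342324-121342623, plus strand: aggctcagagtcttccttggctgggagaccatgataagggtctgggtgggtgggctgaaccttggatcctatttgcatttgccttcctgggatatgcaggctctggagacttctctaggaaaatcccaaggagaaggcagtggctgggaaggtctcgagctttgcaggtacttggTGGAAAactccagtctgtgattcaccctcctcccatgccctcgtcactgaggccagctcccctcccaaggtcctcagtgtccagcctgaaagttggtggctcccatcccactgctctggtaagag
Slc38a4, chr15:97055907-97056206, minus strand: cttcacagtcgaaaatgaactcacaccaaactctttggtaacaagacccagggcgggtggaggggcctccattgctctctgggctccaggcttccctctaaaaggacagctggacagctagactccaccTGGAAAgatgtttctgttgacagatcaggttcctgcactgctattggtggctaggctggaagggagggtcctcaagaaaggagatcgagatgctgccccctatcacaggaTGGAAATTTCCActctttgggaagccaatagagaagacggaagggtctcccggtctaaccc
Slc24a3, chr2:145167525-145167824, plus strand: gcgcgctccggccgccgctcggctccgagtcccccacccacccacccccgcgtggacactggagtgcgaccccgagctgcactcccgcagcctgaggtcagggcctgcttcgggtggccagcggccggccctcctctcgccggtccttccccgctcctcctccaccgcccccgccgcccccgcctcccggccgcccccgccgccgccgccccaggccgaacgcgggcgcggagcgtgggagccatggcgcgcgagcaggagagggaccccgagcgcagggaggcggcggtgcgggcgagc

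The Slc6a12 window holds the core once, at position -75 from the start, and this match also fits the longer tonicity element consensus. That consensus was found in 4.96% of all promoter windows and in 4 of the 181 windows of members (2.21%), those of Slc6a12, Slc38a4, Slc18b1 and Slc38a6. RefSeq lists 5 windows for Slc6a12, and the core was found in this one, the most upstream. The window that begins 250 bases before the GENCODE gene start, chr6:121342826-121343125, holds none. The Slc38a4 window holds the core at -121, -11 and -5, the last of them on the other strand and next to the second. The Slc24a3 window holds none, and 80.7% of its bases are G or C. The core occurred on either strand in 21.4% of all 32851 RefSeq promoter windows and in 24 of the 181 windows of members (13.3%), which covered 134 of the 175 members. Which start these cells used was not measured, and a match of letters is not a measured binding site.

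Mean levels of members over the 8 libraries ran from 0.911 to 180.4 FPKM. They had a median of 6.49 FPKM, against 7.27 FPKM for all 11864 genes at the same threshold. A mean of at least 10 FPKM was found for 62 members and a mean under 3 FPKM for 47. Summed over members, the libraries held 2390 to 2506 FPKM. The highest was Slc9a3r2, which encodes a scaffold protein that binds a sodium-proton exchanger and is no carrier itself. It stood at 197, 159, 141 and 177 FPKM in libraries 1 to 4 labelled Cavb3 KO and at 214, 209, 187 and 159 FPKM in WT libraries 1 to 4, so that the groups overlapped. It is 1 of 5 members that the symbol rule includes although they are not carriers, the others being Slc9a3r1, Slc4a1ap, Slc7a6os and the pseudogene Slc2a4rg-ps.

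**Figure D1:**
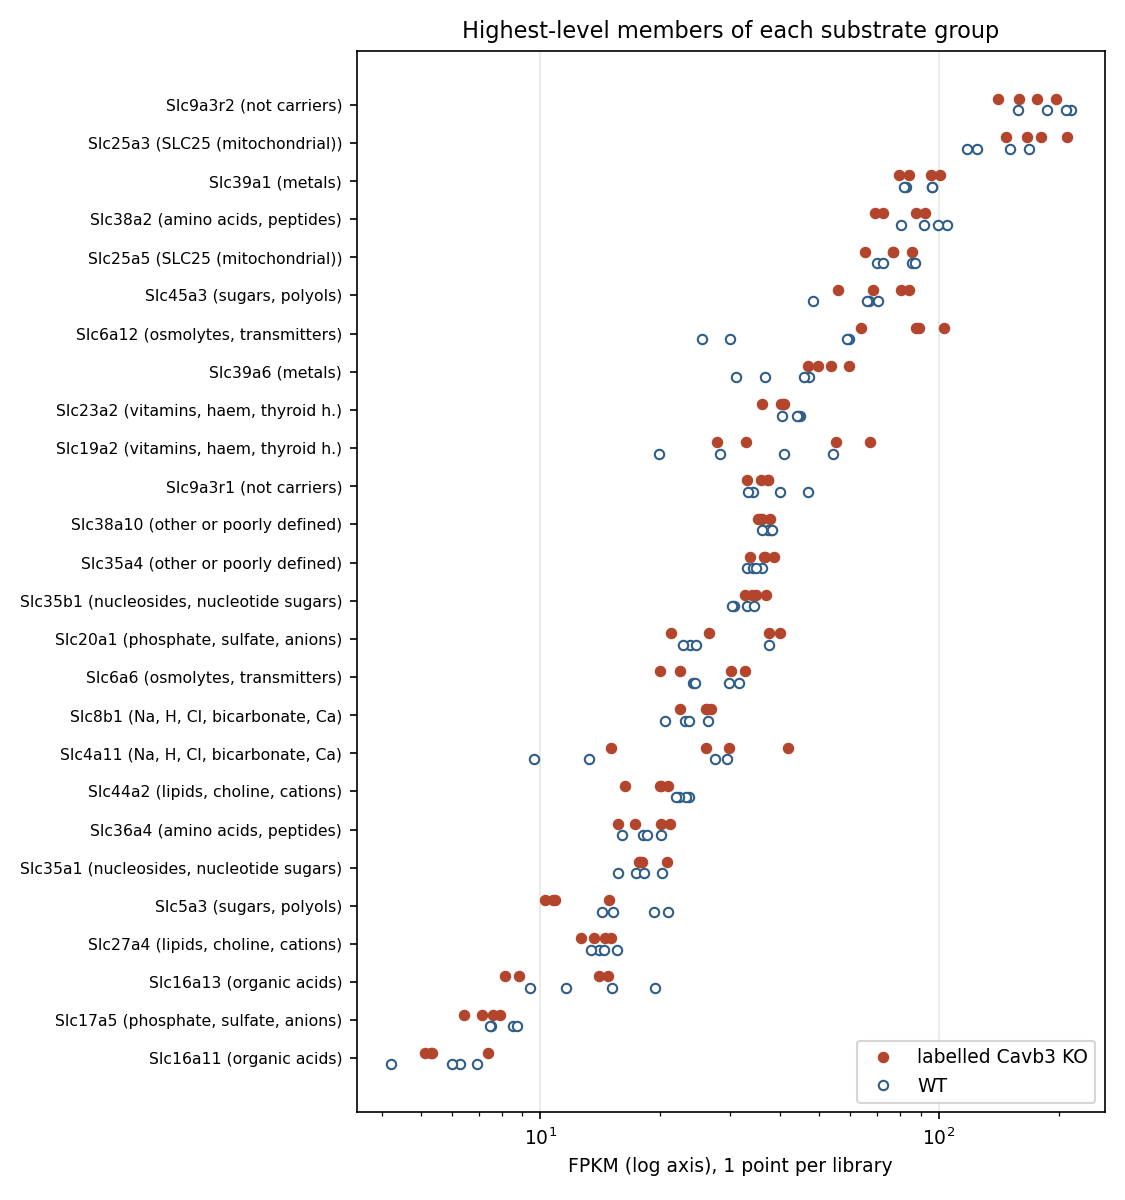
FPKM in each library, on a logarithmic axis, for the members with the highest mean level of each of the 13 substrate groups, with filled points for libraries labelled Cavb3 KO drawn above open points for WT. The points of Slc6a12 and Slc44a2 do not overlap between the labels, while those of the other members shown do.

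Among carriers proper, the mitochondrial phosphate carrier Slc25a3 was highest, at 166, 148, 181 and 210 FPKM in the libraries labelled Cavb3 KO and 125, 118, 168 and 151 FPKM in the WT libraries. Within each replicate number the library labelled Cavb3 KO was above the WT library, while over all 8 libraries the groups overlapped. Its genotype difference of 0.33 on the log2(FPKM + 1) scale (SE 0.07) did not pass with the library set as a term, at an adjusted p of 0.0795 in limma. The plasma membrane zinc importer Slc39a1 followed at 90.1 ± 9.78 FPKM in the libraries labelled Cavb3 KO and 89.3 ± 8.10 FPKM in WT (SD, n = 4 each). Then came the sodium-coupled neutral amino acid carrier Slc38a2 at 80.4 ± 11.1 and 94.1 ± 10.5 FPKM, and the mitochondrial ADP/ATP carrier Slc25a5 at 76.1 ± 8.39 and 78.7 ± 8.75 FPKM, in the same order of groups. The last 3 overlapped in their libraries, while Slc25a3 was above them in every library.

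Between the genotype labels, the fit with genotype alone passed none of the 175 members at an adjusted p of 0.05 in limma, nor any gene (0% of 11864). The smallest adjusted p of a member was 0.453. Without adjustment, 12 members (6.86%) were under 0.05, 4 of them higher and 8 lower in the libraries labelled Cavb3 KO, beside 5.45% of all genes, and limma-voom on recovered fragments likewise passed none, with 11 unadjusted. The difference was below 0 for 110 members (62.9%), against 55.8% of all genes, with a median of -0.06 against -0.02 on the log2(FPKM + 1) scale. In replicates 1 and 2 alone the median of members was -0.02 and in replicates 3 and 4 alone -0.07. The sign was the same in both library sets for 117 members (66.9%), beside 63% of all genes. Without replicate 4 labelled Cavb3 KO, the share below 0 was 56.0% and the median -0.02 in the fit with genotype alone. That omission leaves the library sets unequal between the labels. With the library set as a term, the share was 61.1%, beside 56.1% of all genes, and the median -0.03.

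The 4 libraries of each label did not overlap for 7 members, 4% of them, beside 4.14% of all genes. Of these, 2 were higher, beside 1.64% of all genes, and 5 lower, beside 2.5%. The 2 higher were Slc6a12 and Slc38a4, and the 5 lower were Slc16a4, Slc1a1, Slc44a2, Slc44a1 and Slc7a7. With the library set as a term, which removes the difference between replicates 1 and 2 and replicates 3 and 4, 2 members (1.14%) passed, beside 0.632% of all genes. Slc6a12 rose in the libraries labelled Cavb3 KO, as did 0.261% of all genes, and Slc24a3 fell, as did 0.371%. With the replicate number as a block instead, no member passed, with 37 unadjusted beside 16.1% of all genes, and the adjusted p was 0.101 for Slc6a12 and 0.107 for Slc24a3.

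Slc6a12 (ENSMUSG00000030109, GRCm38 chromosome 6, 121343076 to 121365775, plus strand) encodes a sodium- and chloride-coupled transporter of betaine, an organic osmolyte, and of GABA. It was at 64.0, 87.7, 103 and 89.3 FPKM in libraries 1 to 4 labelled Cavb3 KO, against 25.4, 29.9, 59.4 and 58.7 FPKM in WT libraries 1 to 4. The lowest labelled knockout library was above the highest WT library, and WT replicates 3 and 4 were well above WT replicates 1 and 2. It averaged 85.9 ± 16.1 FPKM in the libraries labelled Cavb3 KO and 43.3 ± 18.2 FPKM in WT (SD, n = 4 each), which is 1.98-fold. The log2 difference was 1.05 (95% interval 0.66 to 1.44), with an adjusted p of 0.0474 in limma with the library set as a term and of 0.623 without it. Within replicates 1 and 2 it was 1.41 and within replicates 3 and 4 it was 0.69, and that difference was not past the threshold. The test of whether the genotype difference differed between the library sets passed no member, with 11 unadjusted and a smallest adjusted p of 0.394 in limma, beside 0.00843% of all genes adjusted and 6.2% unadjusted.

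**Figure D2:**
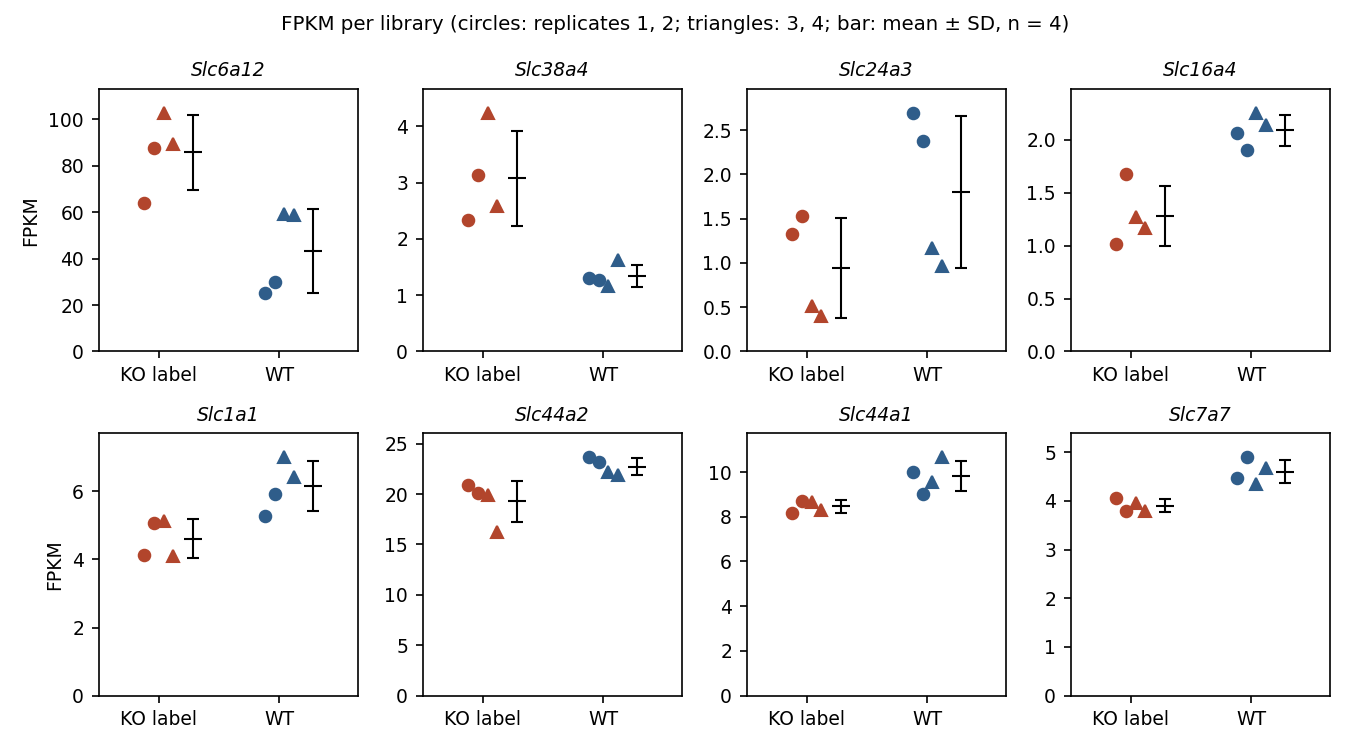
FPKM in each library for the 8 members that passed with the library set as a term or whose genotype groups did not overlap. Libraries labelled Cavb3 KO are left of WT, circles are replicates 1 and 2, triangles are replicates 3 and 4, and bars give the mean and SD of 4 libraries. Slc6a12 stood at 64.0 to 103 FPKM in the libraries labelled Cavb3 KO and at 25.4 to 59.4 FPKM in WT.

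The call for Slc6a12 lay close to the threshold. Its direction held in every alternative to that fit, with log2 differences of 0.89 to 1.16. Leaving out any WT library, or replicate 1 or 2 labelled Cavb3 KO, gave adjusted p values of 0.0654 to 0.176 in limma. Among markers of other cells that could carry this gene, the fibroblast and meningeal list summed to 12.2 to 22.6 FPKM in the libraries labelled Cavb3 KO and 16.5 to 21.8 FPKM in WT. In that list Foxc1 was the highest, at 8.17 to 16.1 FPKM in the libraries labelled Cavb3 KO and 11.9 to 17.8 FPKM in WT. Col1a1 averaged 3.20 and 2.43 FPKM and Col3a1 ran from 0.633 to 2.15 and from 0.449 to 0.966 FPKM in the same order of groups. Lum was at 0 in all libraries, and Slc6a13, the related GABA transporter, was at 0.013 to 0.097 FPKM. The pericyte marker Pdgfrb was higher without overlap, as given above, while the other 6 pericyte markers were below 1 FPKM in every library. The part of these markers in the Slc6a12 difference was not tested.

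Slc24a3 (ENSMUSG00000063873, chromosome 2, 145167754 to 145642166, plus strand) encodes a potassium-dependent sodium-calcium exchanger. It was at 1.33, 1.53, 0.518 and 0.401 FPKM in libraries 1 to 4 labelled Cavb3 KO, against 2.70, 2.38, 1.17 and 0.963 FPKM in WT libraries 1 to 4. Each labelled knockout library was below both WT libraries of its own set, while over all 8 libraries the groups overlapped. The log2 difference was -0.52 (95% interval -0.71 to -0.33), with an adjusted p of 0.0472 in limma with the library set as a term and 0.896 without it. Leaving out any library but replicate 3 labelled Cavb3 KO gave adjusted p values of 0.0624 to 0.176 in limma. With a pseudocount of 0.1, a scale that compresses low genes less, the difference was -0.92 and did not pass. Slc24a3 reached 1 FPKM in 5 of the 8 libraries, and replicates 3 and 4 labelled Cavb3 KO rested on 56 and 43 fragments.

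Slc38a4 (ENSMUSG00000022464, chromosome 15, 96994820 to 97055956, minus strand), a sodium-coupled neutral amino acid carrier, missed the threshold. It stood at 2.33, 3.14, 4.24 and 2.59 FPKM in the libraries labelled Cavb3 KO and at 1.31, 1.26, 1.16 and 1.63 FPKM in WT, with no overlap. The difference of 0.78 (SE 0.14) had an adjusted p of 0.0558 in limma with the library set as a term. Over the alternatives to that fit its p ran from 0.0276 in limma-voom to 0.259 with no filter on low genes.

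Of the members that were lower without overlap, the largest difference was that of Slc16a4, of the monocarboxylate transporter family, at 1.02, 1.68, 1.27 and 1.16 FPKM in the libraries labelled Cavb3 KO and 2.06, 1.90, 2.25 and 2.14 FPKM in WT. The difference of -0.44 had an adjusted p of 0.0856 in limma with the library set as a term. The glutamate transporter Slc1a1 stood at 4.12 to 5.13 FPKM in the libraries labelled Cavb3 KO and 5.29 to 7.0 FPKM in WT (adjusted p = 0.112 in the same limma fit), and 31.9% of its exon length overlaps the opposite-strand gene 4430402I18Rik, itself at 0.368 FPKM on average. The choline transporter-like proteins Slc44a2 and Slc44a1 had log2 differences of -0.23 and -0.19. Slc7a7, the light chain of a cationic amino acid exchanger, had -0.19, and all 3 had adjusted p values of 0.130 to 0.159 in that fit.

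At a looser adjusted p of 0.1 in the same limma fit, a level chosen after seeing the data, 11 members would count, beside 577 of all 11864 genes. Of these, 6 were higher in the libraries labelled Cavb3 KO, namely Slc6a12, Slc38a4, the zinc importer Slc39a6, Slc25a3, the cationic amino acid exchanger chain Slc7a6 and the sodium-proton exchanger Slc9a2. The 5 lower were Slc24a3, Slc16a4, the lysosomal carrier Slc38a7, Slc35g2 and Slc46a3. Slc39a6 was at 49.9, 47.1, 53.7 and 59.5 FPKM in the libraries labelled Cavb3 KO and at 36.5, 30.9, 47.1 and 45.8 FPKM in WT. Its highest WT library equalled the lowest library labelled Cavb3 KO to within rounding.

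Substrate groups differed little between the labels, with medians from -0.13 to 0.04 on the log2(FPKM + 1) scale beside -0.02 for all genes. The 7 members grouped under lipids, bile acids, choline and organic cations all had a difference below 0, beside 55.8% of all genes. Their median was -0.11 and their range -0.23 to -0.04, and none passed. They include the fatty acid transport protein Slc27a4, at 14.0 ± 1.05 FPKM in the libraries labelled Cavb3 KO and 14.3 ± 0.909 FPKM in WT (SD, n = 4 each). Of the 35 SLC25 carriers, 26 were below 0, with a median of -0.08. That median was -0.01 in replicates 1 and 2 and -0.14 in replicates 3 and 4.

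**Figure D3:**
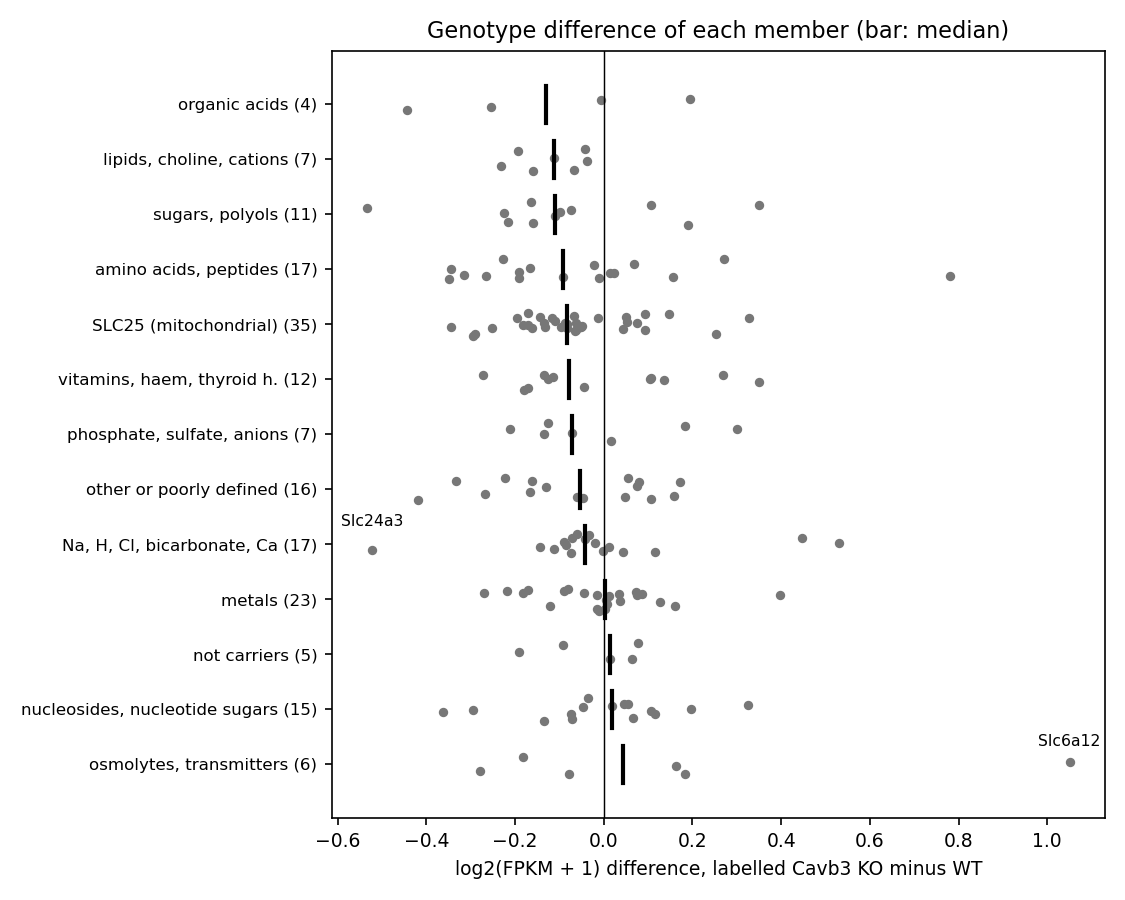
Log2 difference of each member, libraries labelled Cavb3 KO minus WT, by substrate group, with a bar at each group's median and the number of members in brackets. Slc6a12 at 1.05 stood farthest from 0, and group medians lay between -0.13 and 0.04.

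Among the 17 amino acid and peptide carriers the median was -0.09, 11 were below 0 and none passed. One of them, the glutamate transporter Slc1a3, is also known as an astrocyte marker and averaged 16.1 ± 1.90 FPKM in the libraries labelled Cavb3 KO and 17.2 ± 1.61 FPKM in WT (SD, n = 4 each). The other 4 astrocyte markers were below 1 FPKM in every library. The 23 metal transporters had a median of 0.00, with 11 below 0. Of them, the 11 zinc importers of SLC39 had a median of 0.04 and the 6 zinc exporters of SLC30 one of -0.01. Sugars and polyols had a median of -0.11 over 11 members, and vitamins, haem and thyroid hormone one of -0.08 over 12. The myo-inositol carrier Slc5a3, an osmolyte carrier like Slc6a12, had 10.8, 14.9, 10.3 and 10.9 FPKM in the libraries labelled Cavb3 KO and 19.3, 15.2, 14.3 and 20.9 FPKM in WT. Its difference of -0.53 ran opposite to that of Slc6a12 and had an adjusted p of 0.116 in limma with the library set as a term.

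The list of genes known to respond to tonicity gave the other osmolyte genes beside Slc6a12. Of its 14 genes 12 were tested, and 2 rose with the library set as a term, Slc6a12 and the heat shock protein gene Hspa4l, while none fell, beside 0.261% and 0.371% of all genes. Neither passed with the replicate block, where the adjusted p was 0.101 for Slc6a12 and 0.0902 for Hspa4l in limma. Hspa4l was at 99.9, 92.3, 133 and 150 FPKM in the libraries labelled Cavb3 KO and at 68.9, 52.7, 100 and 97.8 FPKM in WT, with a log2 difference of 0.59 and an adjusted p of 0.0472 in limma. Without replicate 2 labelled Cavb3 KO, a setting chosen after seeing the data, that p was 0.0788. The median of the 12 was 0.17, beside -0.02 for all genes, with 8 above 0 and 4 below. Slc38a2 at -0.23 and Smpd2 at -0.13 were among those below. The list was chosen with earlier results known and holds Slc6a12 itself, so its count and median are not a separate test. Nfat5 itself differed by 0.19, the taurine carrier Slc6a6 by -0.08 and the aldose reductase gene Akr1b3 by 0.16, none of which passed. Aqp1, a water channel, was at 51.1, 126.6, 29.0 and 15.3 FPKM in the libraries labelled Cavb3 KO and at 12.5, 15.3, 14.3 and 14.97 FPKM in WT. Replicate 4 labelled Cavb3 KO equalled the highest WT library to within rounding. Its difference of 1.48 had an adjusted p of 0.145 in the same limma fit, and it was 2.46 in replicates 1 and 2 and 0.50 in replicates 3 and 4. Without replicate 2 labelled Cavb3 KO, the mean under that label fell to 31.8 FPKM, against 55.5 FPKM with it, and the difference was 1.03.

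No gene passed in the other pathway lists in the same fit. The amino acid response list of ATF4 and its targets had 23 tested genes with a median of -0.18, iron handling 15 with -0.01, zinc and metallothionein 4 with -0.12, and thyroid hormone handling 4 with -0.15.

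The library sets separated the members far more than the labels did. Over the 175 members, the first principal component held 71.0% of the variance and separated replicates 1 and 2 from replicates 3 and 4. The second held 11.8% and separated the genotype labels. Between the sets, 80 members passed (45.7%), against 45.7% of all genes, so the share of members was that of genes at large. In replicates 1 and 2, 48 members rose, beside 25.8% of all genes, and 32 fell, beside 19.8%. The set difference was larger than the genotype difference for 132 members (75.4%), beside 75.1% of all genes. The 4 libraries of each set did not overlap for 76 members (43.4%), beside 39.7% of all genes. The selection favours such a difference most plainly for 5 members. Of these, 2 reached 1 FPKM in replicates 1 and 2 only and 3 did so in replicates 3 and 4 only. It can also favour one for others of the 19 members that reached 1 FPKM in 4 to 7 libraries. Of those 19, 9 rose in replicates 1 and 2 and 5 fell. Of the 156 at 1 FPKM in all 8 libraries, 39 rose and 27 fell.

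**Figure D4:**
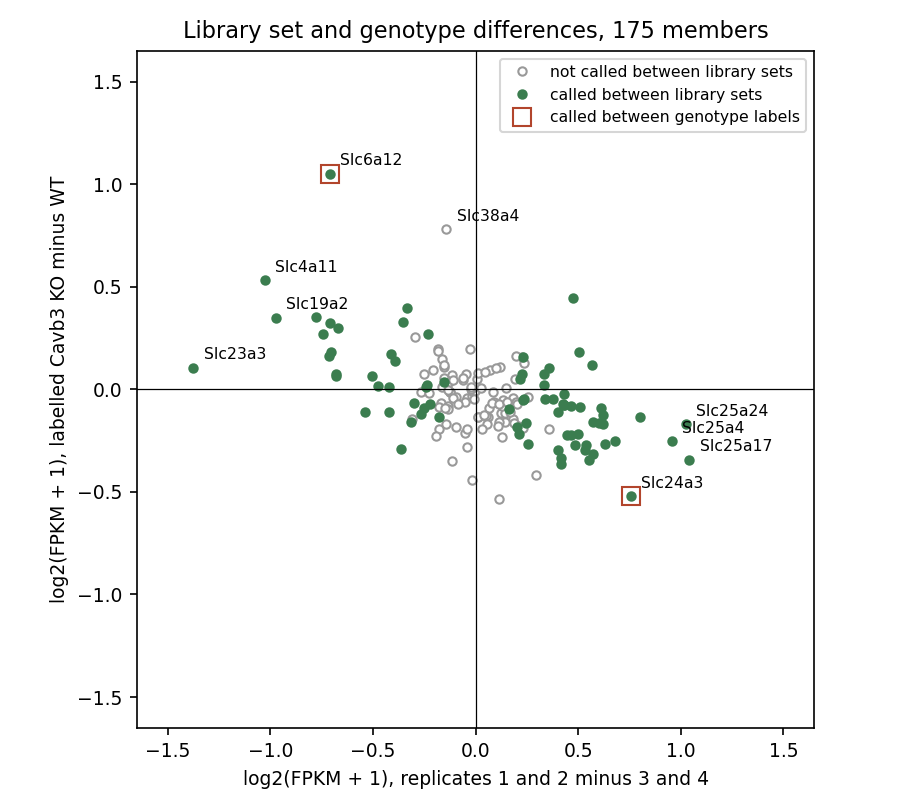
Log2 difference between genotype labels against log2 difference between library sets (replicates 1 and 2 minus replicates 3 and 4) for each member. Filled points passed between the sets, and squares mark Slc6a12 and Slc24a3, which passed between the labels with the set as a term. The set differences ran from -1.38 to 1.04 and the genotype differences from -0.53 to 1.05.

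Carriers of the SLC25 family held the 3 largest rises in replicates 1 and 2. The peroxisomal carrier Slc25a17, the ATP-magnesium/phosphate carrier Slc25a24 and the ADP/ATP carrier Slc25a4 rose by 1.04, 1.02 and 0.96 on the log2(FPKM + 1) scale. For Slc25a4, replicates 1 and 2 held 59.7 and 84.0 FPKM in the libraries labelled Cavb3 KO and 74.0 and 76.1 FPKM in WT. Replicates 3 and 4 held 45.3 and 22.4 FPKM under the knockout label and 43.3 and 42.9 FPKM in WT. The sets did not overlap, and replicate 4 labelled Cavb3 KO was the lowest (adjusted p = 0.00902 in limma). Over the 35 SLC25 carriers, 11 rose in replicates 1 and 2 and 3 fell, beside 25.8% and 19.8% of all genes, with a median of 0.11, beside 0.04 for all genes. The 3 that fell included the phosphate carrier Slc25a3, with 139 FPKM in replicates 1 and 2 and 178 FPKM in replicates 3 and 4 on average.

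Among the 17 amino acid carriers 6 rose in replicates 1 and 2 and 2 fell, where 25.8% of all genes rose and 19.8% fell. They include Slc43a2, a leucine and phenylalanine facilitator, at 0.63 and the glycine transporter Slc6a9 at 0.60, of whose exon length 27.8% overlaps the opposite-strand gene Ccdc24. Slc1a4 and Slc6a9 also belong to the ATF4 list. In that list 12 of 23 genes rose and 3 fell, beside 25.8% and 19.8% of all genes. The median was 0.50, beside 0.04 for all genes, and the serine synthesis gene Phgdh at 1.46 had the largest rise. Of 11 sugar and polyol carriers 5 rose and 2 fell, and of 15 nucleoside and nucleotide sugar carriers 6 rose and 2 fell, beside the same shares of all genes.

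Of the 32 members that fell in replicates 1 and 2, 5 were among the 23 metal transporters, 4 among the 17 ion carriers, 4 among the 12 vitamin and haem carriers and 3 among the 6 osmolyte and transmitter carriers, beside 19.8% of all genes. The thiamine transporter Slc19a2 averaged 27.2 FPKM in replicates 1 and 2 and 54.3 FPKM in replicates 3 and 4, a log2 difference of -0.97 (adjusted p = 0.00162 in limma). Slc4a11, a membrane protein of the bicarbonate transporter family, averaged 16.0 and 32.1 FPKM in the same order (difference -1.03). The creatine transporter Slc6a8 averaged 7.69 and 13.3 FPKM (difference -0.72), and Slc6a12 51.7 and 77.5 FPKM (difference -0.71, adjusted p = 0.0115 in limma). All 4 passed in that direction, whereas the taurine carrier Slc6a6, another osmolyte carrier, rose in replicates 1 and 2 by 0.43.

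The largest fall, -1.38, was that of Slc23a3, an orphan relative of the ascorbate transporters. Replicates 1 and 2 held 0.636 and 0.423 FPKM under the label Cavb3 KO and 0.237 and 0.222 FPKM in WT. Replicates 3 and 4 held 1.60 and 3.54 FPKM under the label Cavb3 KO and 2.61 and 2.76 FPKM in WT, above every library of the other set. It is 1 of 3 members that reached 1 FPKM in replicates 3 and 4 alone, with the glucose transporter family member Slc2a6 and the ascorbate carrier Slc23a1, so a difference between the sets was built into their selection. The ubiquitous ascorbate carrier Slc23a2 did not share it, at 41.5 FPKM in replicates 1 and 2 and 41.3 FPKM in replicates 3 and 4 on average.

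**Figure D5:**
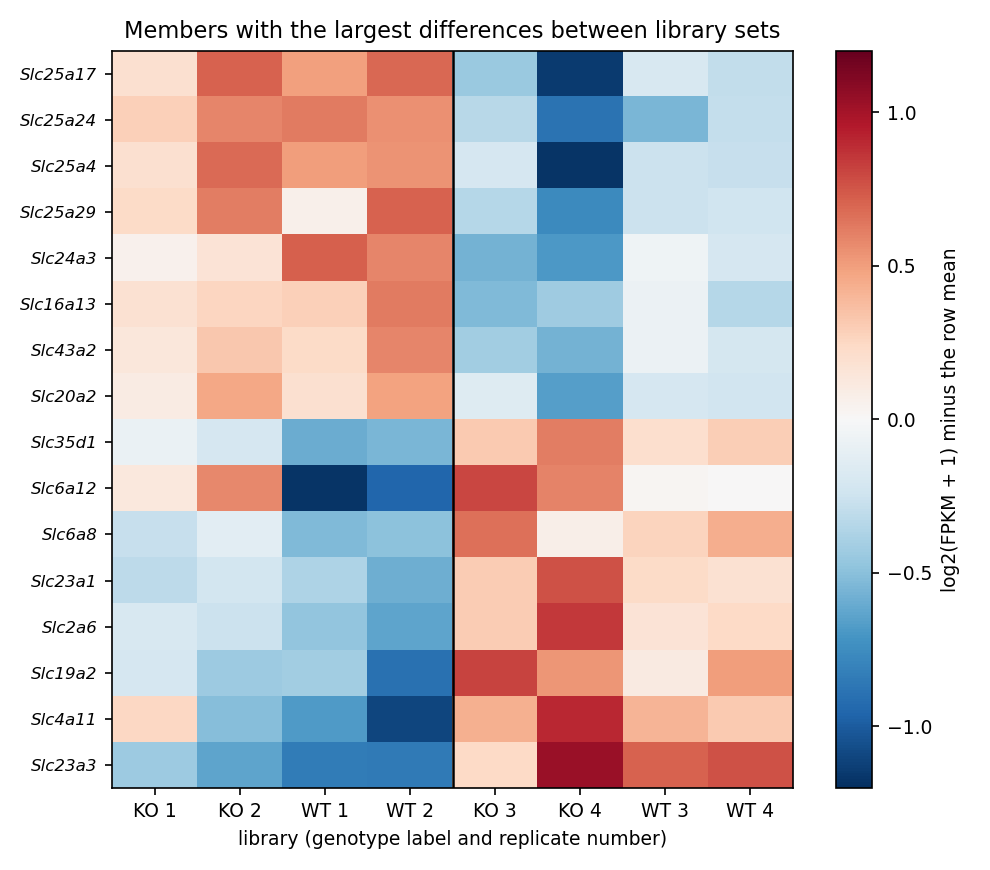
Level of the members with the largest set differences in each library, as log2(FPKM + 1) minus the member's mean, with replicates 1 and 2 left of the line and those labelled Cavb3 KO left of WT in each set. Red is above the mean and blue below it, and replicate 4 labelled Cavb3 KO holds the deepest blue for Slc25a17, Slc25a24 and Slc25a4.

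Of the 7 carriers of phosphate, sulfate and other anions 2 rose in replicates 1 and 2 and 3 fell, with differences of -0.67 to 0.62. Of the 16 members with other or poorly defined substrates 5 rose and 1 fell, with differences of -0.41 to 0.57, beside 25.8% and 19.8% of all genes. Some members differed little in either comparison. The zinc exporter Slc30a4 averaged 34.6 FPKM in either set and differed by -0.01 between the labels, and the zinc importer Slc39a10 stood at 30.5 ± 1.63 FPKM in the libraries labelled Cavb3 KO and 30.4 ± 2.52 FPKM in WT (SD, n = 4 each). The anion exchanger Slc4a2 and the endoplasmic reticulum ATP carrier Slc35b1 passed in no comparison, nor did Slc38a10, at 36.1 ± 1.08 and 37.4 ± 0.990 FPKM in libraries labelled Cavb3 KO and WT (SD, n = 4 each). The smooth muscle markers Acta2, Myh11, Tagln and Cnn1 summed to 7.95 to 28.5 FPKM in replicates 1 and 2 and to 1.80 to 2.41 FPKM in replicates 3 and 4. Acta2 made up most of the sum in replicates 1 and 2, at 5.87 to 21.9 FPKM. Tagln and Cnn1 were also higher there without overlap. Myh11 went the other way without overlap, at 0.053 to 0.074 FPKM in replicates 1 and 2 and 0.105 to 0.263 FPKM in replicates 3 and 4. Of the 10 endothelial markers 6 rose in replicates 1 and 2 and 1 fell, beside 25.8% and 19.8% of all genes. Their median was 0.41, beside 0.04 for all genes, and Cldn5 averaged 70.9 FPKM there and 26.0 FPKM in replicates 3 and 4. The ependymal marker Foxj1 averaged 0.10 FPKM in replicates 1 and 2 and 4.27 FPKM in replicates 3 and 4, a log2 difference of -2.19. Clic6, the only other gene of its list that was tested, went the other way, at 0.13. The remaining 6 were below 1 FPKM in every library. The part of these markers in the set differences was not tested. In bulk RNA, fewer cells of a type and less RNA per cell cannot be told apart. All 7 members on the X chromosome were kept, and without X- and Y-linked genes the 2 genotype calls were the same genes.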

How the data were processed

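Column-purified RNA of cultured mouse brain endothelial cells was made into NEBNext Ultra libraries, per the labels' protocols. HISAT2 2.0.5 is named in the submitters' processing notes, while no source used here names the counting tool, annotation, build or strand setting. The authors deposited FPKM values, 1 table per library with 54532 Ensembl genes, and groups and replicate numbers came from the titles. Symbols were found for 54409 identifiers. FPKM multiplied by exon length in GENCODE M21 (GRCm38, 54495 genes) was a whole multiple of 1 constant in each library, within 0.01, for 96.5% to 96.8% of the values above 0, from which depth and fragments were recovered.

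Since FPKM are not counts, limma 3.58.1 in R 4.3.3 was fitted to log2(FPKM + 1) with trend and robust moderation over 11864 genes at 1 FPKM or more in at least 4 libraries. Benjamini-Hochberg adjustment ran over all of these genes, with a threshold of 0.05. This scale understates the change of low genes. Differences are libraries labelled Cavb3 KO minus WT, or replicates 1 and 2 minus replicates 3 and 4. The members, the substrate groups, the gene lists and the library sets were chosen with earlier results of these data known. The labels name no such sets. Deviations from the group means correlated across genes at 0.411, 0.754, 0.405 and 0.516 between libraries of the same number. All are above 0.1, but libraries of the same set share the set difference, so these values cannot show that the numbers pair the libraries. Across numbers within a set they were 0.688, 0.412, 0.571 and 0.701 for libraries 1 to 4 labelled Cavb3 KO. For libraries 1, 3 and 4 these were higher than with the same number. The value with a replicate block stands beside the calls of Slc6a12, Slc24a3 and Hspa4l, in case the numbers do pair them.

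Named were Slc6a12, members passing between the labels, up to 8 each way whose groups did not overlap, 2 of the highest level per substrate group, up to 8 each way between the sets, and those nearest the threshold. Further members named were chosen after their values were seen. The fits were tested on simulated data. Promoters are RefSeq's. Other steps ran in Python 3.11.15 with pandas 2.3.3, numpy 2.4.6 and matplotlib 3.10.9.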

Additional observations from a re-analysis of the deposited data

Results flagged for a closer look

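Among the 45 named members, each with 4 libraries per label, 7 of the 90 groups held a library whose gap to the nearest other, divided by the group's range, was above Dixon's 95% critical value for 4 samples. Chance flags about 1 group in 20. Replicate 4 labelled Cavb3 KO stood apart for Slc16a11 (ratio 0.906, 7.4 FPKM against 5.14 to 5.35 in the other 3), for the nucleotide sugar carrier Slc35a1 (0.906, 20.8 against 17.7 to 18.0) and for the ascorbate carrier Slc23a2 (0.886, 36.1 against 40.2 to 40.8). Replicate 2 labelled Cavb3 KO stood apart for the myo-inositol carrier Slc5a3 (0.861, 14.9 against 10.3 to 10.9) and the mitochondrial sodium-calcium exchanger Slc8b1 (0.843, 22.4 against 26.1 to 26.8). WT replicate 2 stood apart for the phosphate carrier Slc20a1 (0.873, 37.5 against 22.8 to 24.6) and for Slc23a2 (0.853, 40.4 against 44.1 to 44.8).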

How the results depend on the processing

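The count of members passing between the labels was 0 in every alternative without a library set term, and 2 with that term. The replicate block took those 2 to 0. With the library set as a term, the count of 2 became 0 with a pseudocount of 0.1, with no filter and with limma without trend and robust moderation, 1 after quantile normalization, 5 with a filter at 5 FPKM and 6 with limma-voom on recovered fragments, and it was 11 at an adjusted p of 0.1, a level chosen after seeing the data. Leaving out 1 library gave 0 to 9 members, with 9 without replicate 3 labelled Cavb3 KO, 3 without replicate 4 of that label and 0 without any other library. Slc6a12 was among those called after quantile normalization, with the 5 FPKM filter and with limma-voom. The replicate block could not be fitted for the difference between the sets, because each replicate number lies within a single set. Between the sets the count of 80 was 51 with a filter at 5 FPKM, where 105 members remained in the fit, and 62 to 84 with a library left out. The main counts of 2 and 80 stood beside 0.632% and 45.7% of all genes. At the looser level of 0.1, 577 of all 11864 genes passed. For the other alternatives the share of all genes is not given here. Their counts are therefore no result about members apart from genes at large. No member passed for a genotype difference that differed between the sets under any alternative. Of the single members looked at, none changed its direction under any alternative. The fewest fragments behind any member value were 12.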
